A study of Mus musculus with 7 samples.

Results

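The fibroblasts described here were those of the mouse aorta that carried RNA of an inflammatory secretory program, read from 4 genes: the cytokines Il6 and Lif, the prostaglandin synthase Ptgs2 and the hyaluronan synthase Has1. A cell barcode was kept if it had at least 200 detected genes and at most 25% mitochondrial UMIs (unique molecular identifiers, each counted as 1 captured RNA molecule). It was called Pdgfra-positive if it held at least 1 UMI of Pdgfra, a receptor that marks fibroblasts, no UMI of the leukocyte gene Ptprc or the endothelial gene Pecam1, and at most 2 UMIs of the smooth muscle gene Myh11. The selected fibroblasts were chosen by these measured UMIs, as the Pdgfra-positive barcodes with at least 1 UMI of at least 3 of the 4 genes. They numbered 7953 of 26657 Pdgfra-positive barcodes (29.8%), among 68662 kept barcodes and 76359 deposited ones. They were set against the 7273 Pdgfra-positive barcodes that detected none of the 4 genes, called the 0-of-4 fibroblasts.

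The libraries came from aortas captured on the BD Rhapsody system, 4 from Slc38a2deltaEC mice (knockout) and 3 from Slc38a2flox/flox mice (flox control). All mice had been on a high-salt diet for 3 weeks, so no library shows the cells on another diet. Slc38a2 encodes an amino acid transporter, and the name of the knockout places its loss in endothelial cells, so the fibroblasts are not the cells that were targeted. The labels name neither the Cre line nor the animals behind each library. Every p-value therefore measures the spread between 7 libraries, part of which may be technical.

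Fibroblasts of the adventitia, the outer coat of the artery, lay down collagen and also signal to immune cells. When receptors for interleukin-1, TNF or Toll-like ligands are engaged, NF-kB enters the nucleus and, together with AP-1 and C/EBP factors, switches on cytokine, chemokine and Ptgs2 genes within a short time. IL-6 and LIF signal through the shared receptor chain gp130 (Il6st) to STAT3, which induces the inhibitor Socs3. The hyaluronan made by Has enzymes is bound and modified by the product of Tnfaip6.

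The start sites of the 4 selecting genes and of Cxcl1, the neutrophil chemokine named with them as a marker, are shown because the 4 chose the members and Cxcl1 followed them most closely (the correlations are given further on). Il6 (ENSMUSG00000025746) lies at chr5:30013114-30019981 on the plus strand, Lif (ENSMUSG00000034394) at chr11:4257557-4272514 on the plus strand and Ptgs2 (ENSMUSG00000032487) at chr1:150100031-150108227 on the plus strand. Has1 (ENSMUSG00000003665) lies at chr17:17843323-17855205 on the minus strand and Cxcl1 (ENSMUSG00000029380) at chr5:90891241-90893115 on the plus strand (GENCODE vM21, GRCm38). Each sequence below is the RefSeq promoter on GRCm38.p6, from 250 bases before to 50 bases after the transcription start, 5′ to 3′ on the gene's strand. The windows are chr5:30012864-30013163 for Il6, chr11:4257318-4257617 for Lif, chr1:150099781-150100080 for Ptgs2, chr17:17855139-17855438 for Has1 and chr5:90890995-90891294 for Cxcl1. Capitals mark matches to an NF-kB, AP-1, CRE or C/EBP motif.
Il6: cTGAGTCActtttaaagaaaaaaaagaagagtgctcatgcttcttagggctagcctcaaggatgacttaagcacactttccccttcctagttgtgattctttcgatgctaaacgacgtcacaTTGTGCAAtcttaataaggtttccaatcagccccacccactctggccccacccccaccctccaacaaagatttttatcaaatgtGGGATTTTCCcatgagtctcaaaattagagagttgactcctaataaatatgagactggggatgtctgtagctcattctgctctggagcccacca
Lif: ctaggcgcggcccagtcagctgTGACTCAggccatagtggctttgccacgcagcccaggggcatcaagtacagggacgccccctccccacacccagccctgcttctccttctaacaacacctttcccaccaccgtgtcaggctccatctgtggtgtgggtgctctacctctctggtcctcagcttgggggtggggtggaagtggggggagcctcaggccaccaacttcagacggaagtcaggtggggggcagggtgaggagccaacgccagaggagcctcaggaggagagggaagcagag
Ptgs2: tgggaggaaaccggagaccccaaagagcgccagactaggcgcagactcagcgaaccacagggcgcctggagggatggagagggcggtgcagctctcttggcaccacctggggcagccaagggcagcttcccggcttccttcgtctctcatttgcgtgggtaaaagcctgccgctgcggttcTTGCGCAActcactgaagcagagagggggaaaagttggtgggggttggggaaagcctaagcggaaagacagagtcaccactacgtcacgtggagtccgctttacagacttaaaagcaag
Has1: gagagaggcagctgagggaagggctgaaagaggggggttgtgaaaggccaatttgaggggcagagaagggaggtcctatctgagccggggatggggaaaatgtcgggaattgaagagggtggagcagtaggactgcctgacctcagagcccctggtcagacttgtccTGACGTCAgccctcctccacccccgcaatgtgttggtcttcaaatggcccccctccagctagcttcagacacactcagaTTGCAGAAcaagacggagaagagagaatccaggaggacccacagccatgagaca
Cxcl1: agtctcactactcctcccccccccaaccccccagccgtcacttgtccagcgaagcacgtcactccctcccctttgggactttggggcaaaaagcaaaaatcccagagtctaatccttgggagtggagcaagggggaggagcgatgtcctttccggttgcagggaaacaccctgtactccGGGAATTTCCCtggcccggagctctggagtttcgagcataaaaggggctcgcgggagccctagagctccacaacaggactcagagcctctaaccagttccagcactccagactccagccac

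Il6 held an NF-kB match whose first base lay 44 bases before the start, a C/EBP match 128 bases before it and an AP-1 match 249 bases before it. Cxcl1 held a pair of overlapping NF-kB matches, 71 and 70 bases before the start, read as 1 capital run above. Ptgs2 held a C/EBP match 69 bases before the start, Has1 a CRE match 83 bases and a C/EBP match 4 bases before it, and Lif an AP-1 match 228 bases before it. The motifs were searched on both strands as TGANTCA for AP-1, TGACGTCA for CRE, TTGCNNAA for C/EBP and by its consensus for NF-kB, and no AP-1 match can also be a CRE match. Among 32851 RefSeq promoters of the same length, 4.51% held an NF-kB match, 7.81% an AP-1 match, 1.79% a CRE match and 10.8% a C/EBP match. A match describes the letters of the window and does not show binding.

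The kept barcodes were checked against the labels and for depth before use. The labels call the cells goblet cells, but no kept barcode held 3 of 7 goblet markers, and these summed to 0.395 to 1.81 raw CPM in the selected fibroblasts of a library. Raw CPM are the UMIs of a gene over all UMIs of the same barcodes, as CPM with no further scaling. The selected fibroblasts held 68749486 UMIs, with a median of 6107 to 9387 UMIs per barcode by library, against 2334 to 4733.5 in the 0-of-4 fibroblasts. Median mitochondrial shares were 3.62% to 4.59% in the selected and 4.38% to 6.98% in the 0-of-4 fibroblasts. Pairs of libraries shared 68 to 218 barcode sequences, or 1.10% to 1.79% of the smaller library. Scrublet marked 20 of the selected fibroblasts as doublets, and they were kept.

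The fibroblast label fitted the markers. The 9 fibroblast markers, among them Dcn and Pdgfrb, summed to 36898 to 45857 raw CPM in the selected fibroblasts. By contrast the summed level of 8 endothelial markers was 25.4 to 45.3 raw CPM, that of 10 macrophage markers 16.4 to 166 and that of 9 smooth muscle markers 148 to 833. The gate itself acted against these 3 cell types through Pecam1, Ptprc and Myh11. The 5 pericyte markers summed to 559 to 879 raw CPM, mostly Abcc9 (701 over all selected fibroblasts). The 5 chondrocyte markers summed to 222 to 410, mostly Comp (214). Of 5 T cell markers, Cd3g was at 0 UMIs over all selected fibroblasts and the others held 1 to 36 (Lck). Of 7 mesothelial markers, Msln, Upk1b and Lrrn4 were at 0 UMIs and the others held 1 to 104 (Wt1). Hemoglobin and other erythroid markers summed to 4.15 to 2527 raw CPM in knockout libraries, against 146 to 254 in flox controls. The part of such RNA in the results was not tested.

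The share of Pdgfra-positive barcodes that were selected varied widely between libraries of one genotype. It was 13.3%, 36.3%, 49.3% and 24.5% in knockouts 1 to 4, against 31.7%, 23.8% and 38.3% in flox controls 1 to 3. The lowest and the highest share were both in knockouts, and every flox control lay between them. The mean was 30.9% ± 15.5 in knockouts (SD, n = 4) and 31.3% ± 7.27 in flox controls (SD, n = 3), a difference of -0.398 percentage points. An exact two-sided permutation test over all 35 arrangements of the libraries gave p = 0.971, where the smallest p it can give is 0.0286. Because a deeper barcode detects more genes, each Pdgfra-positive barcode was also thinned to 2000 UMIs. The thinned share was 4.74%, 16.9%, 31.1% and 13.2% in knockouts, against 14.2%, 10.1% and 29.0% in flox controls, with 211 to 408 shallower barcodes left out per knockout and 287 to 631 per flox control. The libraries with the highest shares, knockout 3 and flox control 3, were the same before and after thinning. Of all kept barcodes, the selected fibroblasts made up 5.75%, 17.0%, 13.6% and 10.4% in knockouts, against 10.4%, 10.9% and 13.4% in flox controls.

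**Figure D1:**
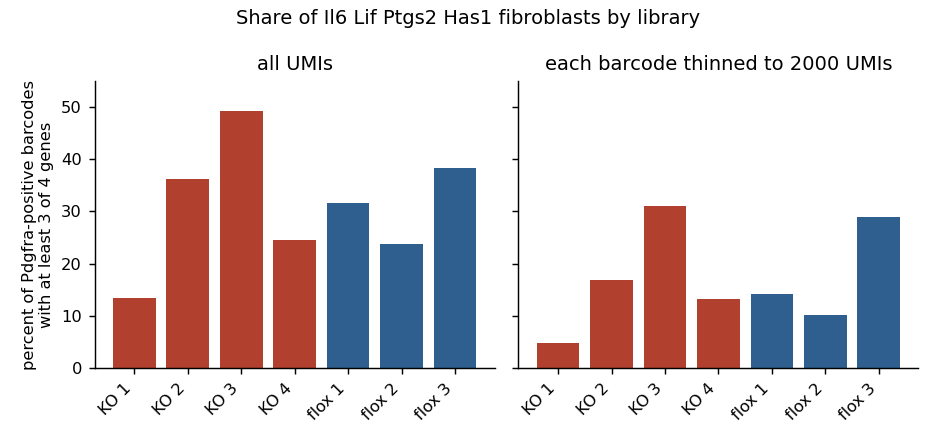
Percent of Pdgfra-positive barcodes selected in each library, with all UMIs (left) and after thinning each barcode to 2000 UMIs (right). Bars of the 4 knockouts (red) run from 13.3% to 49.3% before thinning and enclose those of the 3 flox controls (blue), which run from 23.8% to 38.3%.

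The 4 selecting genes are described here without a test, since they chose the members. Ptgs2, which makes the precursor of prostaglandins, had a median of 8 UMIs per selected fibroblast and a maximum of 424. Il6, a cytokine of the acute phase response, had a median of 5 UMIs and a maximum of 252, and 3.26% of the selected fibroblasts had none. Has1 had a median of 5 UMIs and a maximum of 141. Lif, a cytokine of the IL-6 family, was the rarest of the 4: 68.1% of the selected fibroblasts had no UMI of it, and its maximum was 172. The selection therefore rested mostly on Il6, Ptgs2 and Has1 together. Of the 6211 fibroblasts that detected exactly 3 of the 4 genes, 87.2% lacked Lif, 5.81% lacked Has1, 4.17% lacked Il6 and 2.77% lacked Ptgs2.

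Of the 4 genes, Lif varied most between libraries. In raw CPM of the selected fibroblasts, Lif stood at 119, 89.8, 275 and 65.1 in knockouts, against 99.7, 68.5 and 819 in flox controls. It was detected in 37.3%, 26.3%, 36.7% and 19.9% of the selected fibroblasts of knockouts, against 31.6%, 24.8% and 54.1% in flox controls. Flox control 3 and knockout 3 were the highest of their genotypes. Il6 followed the same order at the top, with 784, 1283, 2397 and 1310 raw CPM in knockouts, against 909, 1065 and 2544 in flox controls. Ptgs2 stood at 1642, 1563, 3103 and 1291 raw CPM in knockouts, against 1404, 1527 and 4967 in flox controls. Has1 had the narrowest range, with 900, 1305, 1446 and 1430 raw CPM in knockouts, against 896, 1170 and 864 in flox controls. Flox control 3 was the highest library for Il6, Lif and Ptgs2 and the lowest for Has1.

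**Figure D2:**
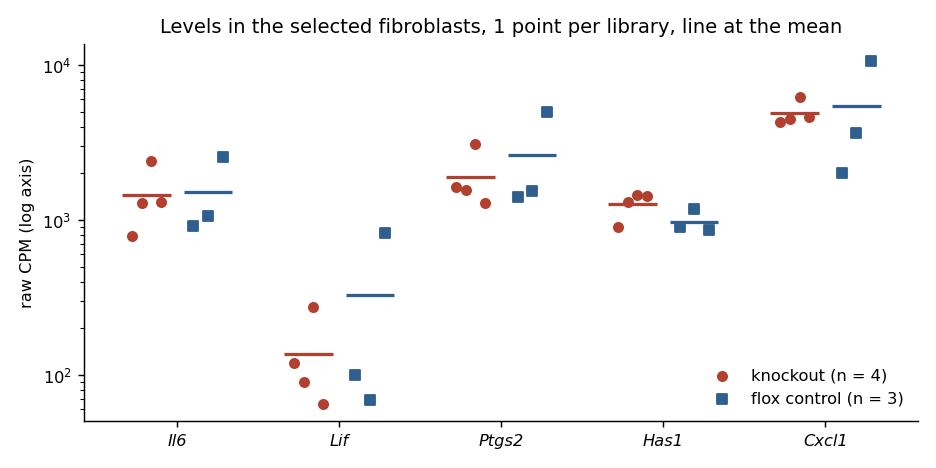
Raw CPM (log axis) of the 4 selecting genes and Cxcl1 in the selected fibroblasts, 1 point per library, with knockouts (red circles, n = 4) left of flox controls (blue squares, n = 3) and lines at the means. Flox control 3 is the highest point for Lif (819), Ptgs2 (4967) and Cxcl1 (10594), while the genotypes overlap for every gene shown.

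Where the 4 genes lay in the aorta as a whole is given as a description, since the rule itself gathers their UMIs in the selected fibroblasts. These were 11.6% of kept barcodes and 19.3% of UMIs, and held 62.9% of the Il6 UMIs, 68.6% of Lif, 58.6% of Ptgs2, 58.6% of Has1 and 54.2% of Cxcl1. At 2000 UMIs per barcode, Il6 was found in 57.9% to 83.6% of the selected fibroblasts of a library, against 0.692% to 6.39% of Myh11-high barcodes. Ptgs2 was found in 72.1% to 86.9% of the selected fibroblasts, against 3.55% to 11.6% of Myh11-high barcodes. The source of these UMIs in Myh11-high barcodes was not tested. At full depth, 67 of 14460 Myh11-high barcodes (0.463%), 94 Pecam1-positive barcodes (1.88%) and 72 Ptprc-positive barcodes (1.5%) detected at least 3 of the 4 genes. Barcodes of these classes also held no UMI of Pdgfra. Among the 17740 kept barcodes outside all of these classes and outside the Pdgfra gate, 2572 (14.5%) detected at least 3 of the 4 genes. Barcodes with Pdgfra that failed the gate through Ptprc, Pecam1 or Myh11 were counted here. Those 17740 barcodes held 20.8% of the Il6 UMIs and 21.9% of the Lif UMIs.

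The levels of the 4 genes by the number of them detected describe the edge of the rule, which fixes that they climb. Fibroblasts with exactly 2 of the 4 genes (5782), just outside the rule, had a mean over the 7 libraries of 461 raw CPM of Il6, 742 of Ptgs2, 446 of Has1 and 12.7 of Lif. Those with exactly 3, just inside it, had 1206 of Il6, 1671 of Ptgs2, 1076 of Has1 and 52.9 of Lif. The 1742 fibroblasts with all 4 genes had 2067 of Il6, 3323 of Ptgs2, 1343 of Has1 and 560 of Lif. They made up 21.6%, 17.6%, 28.9% and 12.8% of the selected fibroblasts in knockouts, against 19.8%, 15.02% and 40.9% in flox controls.

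Genes outside the rule were set along the same grades, also without a test. Cxcl1 stood at 340, 858, 2107, 3975 and 7597 raw CPM from 0 to 4 genes detected, and Ccl2, a chemokine for monocytes, at 72.6, 242, 835, 1704 and 4017. Ptx3, a soluble pattern recognition protein, stood at 6.4, 20.5, 68, 184 and 409 raw CPM. The feedback inhibitor Socs3 did not keep climbing: it reached 319 raw CPM at 3 genes detected and was at 202 at 4, lower in 7 of 7 libraries. Irf1, an interferon-response transcription factor, likewise stood at 459 raw CPM with 3 genes and 281 with 4, lower in 7 of 7 libraries. Txnip, an inhibitor of thioredoxin, stood at 637 raw CPM at 0 genes, 187 at 3 and 96.5 at 4. Dcn, the fibroblast proteoglycan decorin, stood at 13761 raw CPM at 0 genes and 9230 at 4. The levels are relative to total UMIs, and median depth rose along the same grades in every library.

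**Figure D3:**
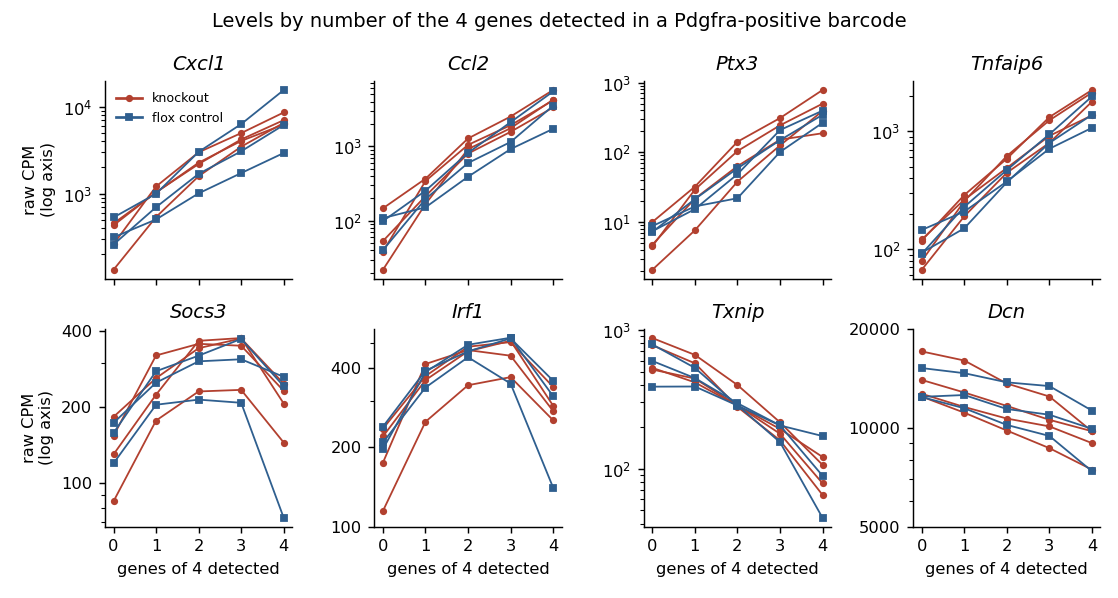
Raw CPM (log axes) of 8 genes in Pdgfra-positive barcodes by the number of the 4 selecting genes detected, 1 line per library, with knockouts in red circles and flox controls in blue squares. Cxcl1, Ccl2, Ptx3 and Tnfaip6 climb toward 4 genes, Txnip and Dcn decline, and Socs3 and Irf1 are lower at 4 genes than at 3.

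Genes outside the rule were then compared between the selected and the 0-of-4 fibroblasts, with UMIs summed per library and class and each library paired with itself in edgeR's quasi-likelihood test. Both classes were formed from genes measured in the same barcodes, so these differences describe which genes go along with the selection and are no independent test of it. From here on, CPM without the word raw are scaled by TMM factors over the genes in the fit, and each log2 difference is the selected over the 0-of-4 fibroblasts ± SE, over 7 pairs. Of 11779 genes tested, 6317 (53.6%) passed an adjusted p of 0.05, with 3001 (25.5%) higher and 3316 (28.2%) lower in the selected fibroblasts, and the median log2 difference was -0.06. With 0-of-4 barcodes of at least the 25th percentile of the selected fibroblasts' UMIs, 4563 genes passed, 2364 higher and 2199 lower. Since over 50% of genes passed, sizes are given beside the calls. Counts for gene lists are over the genes that passed the filter on low counts.

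The largest rises among well measured genes were led by soluble mediators. Ptx3 stood at 139, 251 and 415 CPM (lowest, median and highest library) in the selected fibroblasts, against 1.83, 6.69 and 9.64 in the 0-of-4 fibroblasts, a log2 difference of 5.57 ± 0.20. Ccl2 stood at 1110, 2502 and 4374 CPM, against 19.4, 50.7 and 142, a log2 difference of 5.38 ± 0.35. Its neighbour Ccl7, another monocyte chemokine, rose by 4.88 ± 0.38 on the log2 scale. No library of one class reached the other for any of the 3, though how many of all tested genes share this was not counted. Cxcl1 stood at 2016, 4918 and 12703 CPM, against 117, 281 and 514, a log2 difference of 4.10 ± 0.25, and Cxcl2, a second neutrophil chemokine, differed by 4.17 ± 0.45. Tac1, the precursor of the neuropeptide substance P, rose by 4.73 ± 0.16, and the AP-1 subunit Fosl1 by 4.39 ± 0.19, with 112 to 445 CPM against 5.82 to 14.2. Nipal1 (4.04), the matrix glycoprotein Thbs1 (3.88) and the circadian gene Noct (3.79) completed the 10 largest log2 rises. In the 0-of-4 fibroblasts Tac1 stood at 0.66 to 4.20 CPM and Nipal1 at 1.14 to 4.49. The sizes of rises over such low levels are uncertain.

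Among the genes that fell were Txnip, with 125 to 215 CPM in the selected fibroblasts against 349 to 839 in the 0-of-4 fibroblasts, a log2 difference of -1.72 ± 0.17. The kinase-like gene Trib2 differed by -1.33, Cdc42ep2 by -1.48 and the metalloprotease gene Adam33 by -1.24. The other falls were smaller against deeper barcodes. Zfp791 differed by -4.39 ± 0.18 and by -3.36 against the deeper 0-of-4 barcodes, Lars2, a mitochondrial leucyl-tRNA synthetase, by -2.61 and by -1.74, and the nuclear RNA Neat1 by -1.92 and by -1.24. Clec2d differed by -1.81 and by -1.27 and Cmss1 by -1.60 and by -0.94 on the same terms. Zfp791 stood at only 0.67 to 3.54 CPM in the selected fibroblasts, so the size of its fall is uncertain. The part of depth and of RNA quality in these falls was not tested further.

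IL-6 family genes did not move as a block. Of 13 tested genes outside the rule, 8 were higher and 3 lower, with a median log2 difference of 0.92. The cytokine Il11 stood at 10.03 to 77.0 CPM against 1.52 to 4.90, a log2 difference of 2.88 ± 0.22, and the oncostatin M receptor Osmr at 272 to 447 CPM against 107 to 189, a difference of 1.12 ± 0.07. Socs3 (1.23) and the kinase Jak1 (0.67) were also higher. The shared receptor chain Il6st stood at 402 to 536 CPM against 392 to 508, a log2 difference of 0.10 ± 0.05 that did not pass (adjusted p = 0.102, edgeR's quasi-likelihood test).

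Among chemokines, 8 of 13 tested were higher and 1 lower, with a median of 1.16. Cxcl10, a lymphocyte chemokine induced by interferon, stood at 42.5 to 153 CPM against 2.71 to 31.5, a log2 difference of 3.01 ± 0.18. Cxcl12, the homeostatic chemokine of stromal cells, was the 1 that fell, by 0.22 on the log2 scale. Of 13 prostaglandin genes other than Ptgs2, 6 were higher and 1 lower, with a median of 0.19. The prostaglandin E synthase Ptges3 differed by 0.66, the constitutive synthase Ptgs1 by 0.65, the receptor Ptger4 by 0.92 and the phospholipase Pla2g4a by 0.30.

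Hyaluronan genes rose beside Has1. Of 11 tested, 9 were higher and 2 lower, with a median log2 difference of 1.61. Has2 stood at 38.5 to 93.3 CPM against 2.66 to 9.58, a difference of 3.51 ± 0.12. Tnfaip6, which binds hyaluronan, stood at 800 to 1747 CPM against 59.2 to 131, a difference of 3.72 ± 0.19. The enzymes that supply the sugar precursors of hyaluronan were also higher, Gfpt2 by 2.15 and Ugdh by 2.58, and so was the hyaluronan receptor Cd44 by 1.82. For each of these 5 genes every library of the selected fibroblasts lay above every library of the 0-of-4 fibroblasts. How many of all tested genes lack overlap in this comparison was not counted, so this is not shown to be special to them.

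Of 19 NF-kB subunits, inhibitors and targets, 17 were higher and 0 lower, with a median of 1.71. The target Tnfaip2 differed by 3.35 ± 0.14, the RNase Zc3h12a, which degrades Il6 mRNA, by 2.44, the inhibitor Nfkbib by 1.71 and the subunit Rela by 1.27. Among upstream receptors, ligands and adaptors, 10 of 14 genes of the interleukin-1, TNF, IL-17 and Toll-like group were higher and 0 lower, with a median of 0.75. Il17ra differed by 1.94, the adaptor Myd88 by 1.45, Tnfrsf12a by 2.43 and Tnfrsf1b by 1.8. Tnf itself differed by -0.16 and did not pass (adjusted p = 0.577, edgeR's quasi-likelihood test).

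Immediate early genes, which answer many stimuli and also tissue dissociation, were higher in 26 of 28 and lower in 0, with a median of 1.76. Their summed level was 31074 to 40038 raw CPM in the selected fibroblasts, against 11694 to 21414 in the 0-of-4 fibroblasts. Fosl2 differed by 2.25, Maff by 2.90 and Nr4a1 by 2.02, beside Fosl1 given above, while Fos differed by 0.33. All 12 heat shock genes were higher, with a median of 1.00, and Bag3, a co-chaperone, differed by 1.40. Their summed level was 8997 to 13807 raw CPM, against 4467 to 9066. The tissue was digested with warm enzymes before capture, per the labels, and the part of that step in these lists and in the selecting genes was not tested.

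**Figure D4:**
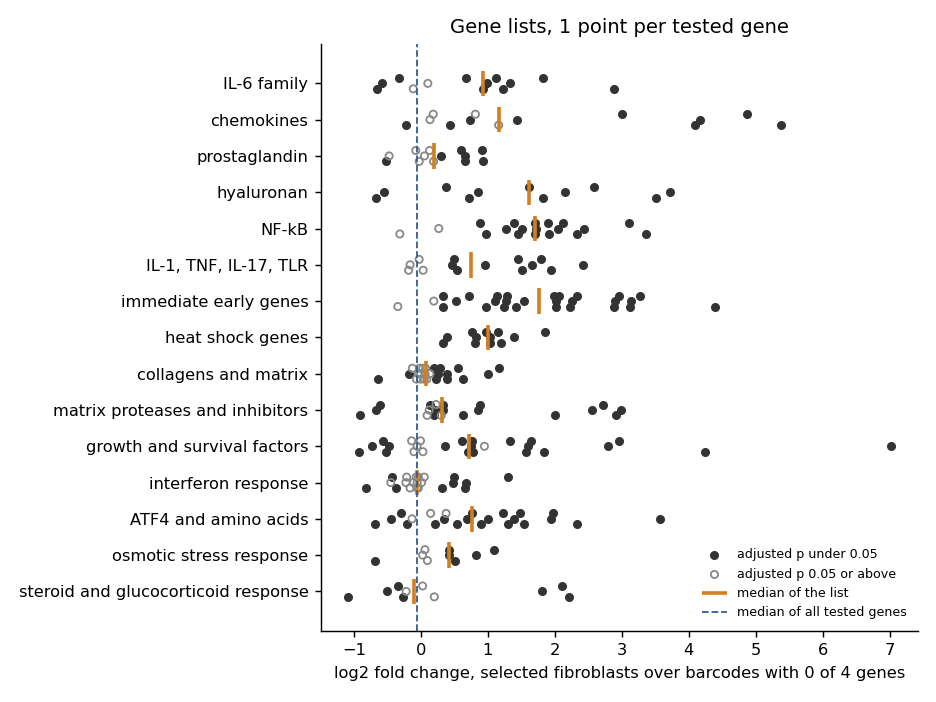
Log2 difference of the selected over the 0-of-4 fibroblasts for each tested gene of 15 gene lists, filled where the adjusted p was under 0.05 and open where it was not, with the list's median as a bar and the median of all tested genes (-0.06) as a dashed line. NF-kB genes (median 1.71), immediate early genes (1.76) and hyaluronan genes (1.61) lie farthest right, and collagens (0.08) and interferon genes (-0.06) lie near the dashed line.

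Matrix genes showed small differences. Of 24 collagens and other matrix genes, 10 were higher and 2 lower, with a median of 0.08. Against the deeper 0-of-4 barcodes 4 were higher and 8 lower. Their summed level was 46195 to 57037 raw CPM in the selected fibroblasts, against 55397 to 66955 in the 0-of-4 fibroblasts. Raw CPM lack the TMM scaling of the log2 differences, so the measures can differ in direction. Col1a1 differed by 0.05 and Col3a1 by 0.06, the collagen Col14a1 by 0.39 and fibulin Fbln2 by 0.55, while the elastin gene Eln differed by -0.64 ± 0.09. Fibronectin, Fn1, differed by 1.17 ± 0.18 and by 0.58 against deeper barcodes. Proteases and their inhibitors moved more: 13 of 20 were higher and 3 lower, with a median of 0.32. The urokinase receptor Plaur differed by 2.98, and the metalloproteases Adamts1 by 2.01 and Adamts4 by 2.71.

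Of 26 growth and survival factors, 15 were higher and 5 lower, with a median of 0.72. The granulocyte-macrophage factor Csf2 stood at 4.43, 4.23, 33.1 and 28.1 CPM in knockouts and 1.91, 19 and 53.9 in flox controls, and its level in the 0-of-4 fibroblasts was 0 to 0.37, too low for a fold. The morphogen Bmp2 differed by 2.79 and the EGF-family ligand Ereg by 4.24. Ereg stood at 0.66 to 3.37 CPM in the 0-of-4 fibroblasts, so the size of its rise is uncertain. In the other direction, Tgfb3 stood at 78.5 to 142 CPM in the selected against 144 to 202 in the 0-of-4 fibroblasts.

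Other programs held genes that rose and genes that fell. Of all tested genes 25.5% were higher and 28.2% lower. The higher counts of the interferon and steroid lists below lie near that share and say little about those programs. Of 21 interferon-response genes, 6 were higher and 3 lower, with a median of -0.06: Irf1 differed by 1.29 and Gbp2 by 0.65, and Ifit3 by -0.83 and Xaf1 by -0.43. Of 23 genes of the ATF4 amino acid response, to which Slc38a2 belongs, 16 were higher and 4 lower, with a median of 0.77. Atf4 differed by 1.53, Sesn2 by 2.33, the transporter subunit Slc3a2 by 1.95 and Chac1 by 3.57. Chac1 stood at 0.33 to 1.5 CPM in the 0-of-4 fibroblasts, so the size of its rise is uncertain. Slc38a2 itself stood at 257 to 734 CPM against 170 to 385, a log2 difference of 0.68 ± 0.06, higher in 7 of 7 libraries. Of 9 osmotic stress genes, 5 were higher and 1 lower, with a median of 0.42, among them Sgk1 (1.08), the inositol transporter Slc5a3 (0.82), the osmotic transcription factor Nfat5 (0.51) and Hspa4l (0.42). Of 10 steroid-response genes, 3 were higher and 4 lower, with a median of -0.10: Mt2 (2.21), Mt1 (1.81) and Errfi1 (2.10) were higher, and the glucocorticoid target Tsc22d3 was lower (-1.09).

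Markers of fibroblast subsets were compared in the same fit. Of 7 markers of the Pi16 Dpp4 subset of the adventitia, 6 were higher and 0 lower, with a median of 0.37, and Dpp4 differed by 1.37, Ly6c1 by 0.76, Sema3c by 0.73 and Pi16 by 0.37. Against the deeper 0-of-4 barcodes 4 of the 7 were higher and 1 lower, with a median of 0.17. Of 6 markers of the Fmod Hhip subset, 3 were higher and 2 lower, with a median of -0.06. Hhip differed by -0.58 and Fmod by -0.72, while Thbs1, Comp and Cthrc1 were higher. Thbs1 stood at 192 to 418 CPM against 13.0 to 33.3. The median library had 239 CPM of Comp against 171, and 17.5 of Cthrc1 against 9.97. Of 5 tested markers of the Cilp Myoc Angptl1 subset, 1 was higher and 0 lower, with a median of -0.06. Against the deeper 0-of-4 barcodes 1 was higher and 2 lower. Cilp stood at 95.6 to 422 CPM against 56.5 to 201. Of 9 general fibroblast markers 0 were higher and 2 lower, Pdgfrb by -0.24 and Dcn by -0.18. Against the deeper barcodes 0 were higher and 5 lower. In raw CPM, without TMM scaling, these 9 summed to 36898 to 45857 in the selected fibroblasts, against 44237 to 53915. Smooth muscle markers were lower in 7 of 8 and macrophage markers in 7 of 8, and against deeper barcodes 2 of 8 smooth muscle and 4 of 7 macrophage markers were lower.

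Across Pdgfra-positive barcodes thinned to 2000 UMIs, the genes most like the sum of the 4 were found by correlation on a log scale within each library, as a description of barcodes that share their library. Cxcl1 came first, with a mean Pearson r of 0.64 over 7 libraries (0.54 to 0.77). Ifrd1 (0.50), Ccl2 (0.49), the immediate early gene Ier5 (0.49), Maff (0.47), the nuclear receptor Nr4a3 (0.47), Ccl7 (0.46), the metallothionein Mt2 (0.46), Tnfaip6 (0.45) and the mRNA-decay factor Zfp36 (0.43) followed. Cxcl1 was missing from 3.22% of the selected fibroblasts and had a median of 23 UMIs and a maximum of 748.

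Genotype, which played no part in the selection, was tested within the selected fibroblasts. Slc38a2, the targeted gene, stood at 237, 475, 521 and 337 CPM in knockouts, against 472, 454 and 677 in flox controls. The groups overlapped, and the log2 fold change of knockout over flox control was -0.44 ± 0.27 (SE, 4 against 3 libraries), which did not pass (adjusted p = 0.914, edgeR's quasi-likelihood test). No gene passed: 0 of 12826 tested genes (0%) had an adjusted p under 0.05, 646 had an unadjusted p under 0.05, and DESeq2 called 2 genes (Cmss1, lower, and a predicted gene, higher). A flat spread of p-values would place 641.3 genes below 0.05. The median log2 fold change of all tested genes was -0.02. Groups without overlap were found for 819 genes (6.39%).

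The fit included the 4 selecting genes, whose levels in the selected fibroblasts depend on the rule, so no fold change is given for them there. Of the chemokines outside the rule, Cxcl1 had a log2 fold change of -0.20 ± 0.51 with overlapping groups, and did not pass (adjusted p = 0.973, edgeR's quasi-likelihood test). Flox control 3 had the highest level of both neutrophil chemokines and set their direction: in the other 6 libraries the log2 fold changes were 0.90 for Cxcl1 and 0.95 for Cxcl2, whose value over all 7 was -0.89. Ccl2 stood at 2304, 1931, 2816 and 2992 CPM in knockouts, against 1022, 1516 and 4035 in flox controls, a log2 fold change of 0.20 ± 0.41. Ptx3 differed by 0.37 ± 0.34.

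The 10 well measured genes of smallest p are named although none passed. All 10 had groups without overlap, as did 6.39% of tested genes. Choosing genes by smallest p favours groups that lie apart, so this adds no support. Cmss1 stood at 48.1, 39.1, 55.5 and 38.1 CPM in knockouts, against 195, 145 and 71.0 in flox controls, a log2 fold change of -1.60 ± 0.29. Cmss1 spans Filip1l, a gene on the opposite strand, and whether the counting used strand is not given in the sources used here. Without flox control 3 it was the 1 gene that passed (adjusted p = 0.0457, edgeR's quasi-likelihood test). Cpeb1, a regulator of mRNA polyadenylation, stood at 171, 241, 273 and 135 CPM in knockouts, against 81.6, 77.1 and 116 in flox controls, a log2 fold change of 1.17 ± 0.26. Col8a1, a collagen VIII chain, stood at 116, 115, 142 and 140 CPM in knockouts, against 62.9, 98.1 and 66.0 in flox controls, a log2 fold change of 0.76 ± 0.18. Lgals3, which encodes galectin-3, stood at 74.7, 29.8, 42.8 and 48.9 CPM in knockouts, against 22.6, 24.1 and 18.2 in flox controls, a log2 fold change of 1.16 ± 0.28. The others were higher in knockouts for Tmem258 (0.68), Rrm2b (0.71), Pfdn1 (0.71) and Cnep1r1 (0.56), and lower for Otud4 (-0.52) and Sash1 (-0.53).

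**Figure D5:**
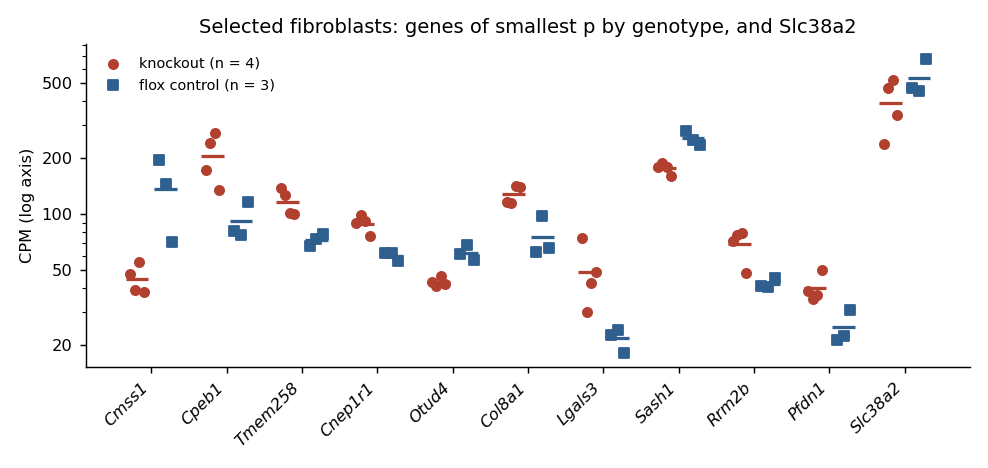
CPM (log axis) in the selected fibroblasts of the 10 genes with the smallest p by genotype and of Slc38a2, 1 point per library, with knockouts (red circles, n = 4) left of flox controls (blue squares, n = 3) and lines at the means. The groups are apart for Cmss1 (38.1 to 55.5 against 71.0 to 195) and the other 9 and overlap for Slc38a2, and no gene passed the adjusted threshold.

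By list, of 23 ATF4 genes, 20 were lower in knockouts, with a median of -0.14 against -0.02 for all tested genes, and 0 had an unadjusted p under 0.05. Of 28 immediate early genes, 21 were higher, with a median of 0.09. Among all 12826 tested genes, 5982 were higher and 6844 lower in knockouts. All 9 smooth muscle markers were lower in knockouts, with a median of -1.0, and 6 of them had an unadjusted p under 0.05. Acta2 stood at 55.8, 50.2, 77.0 and 46.2 CPM in knockouts, against 404, 46.9 and 146 in flox controls, and flox controls 1 and 3 were the high libraries. The 9 markers summed to 148 to 221 raw CPM in knockouts, against 173 to 833 in flox controls. These low levels belong to genes of another cell type, and their part in the genotype values was not tested.

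Taking all Pdgfra-positive fibroblasts in place of the selected ones, 0 of 14780 genes (0%) passed, 722 had an unadjusted p under 0.05 and DESeq2 called 6. The log2 fold change was -0.01 ± 0.64 for Il6, -1.29 ± 0.95 for Lif, -0.47 ± 0.64 for Ptgs2, 0.45 ± 0.37 for Has1 and -0.39 ± 0.27 for Slc38a2, and none passed. Flox control 3 decided the sign for 3 of these. Over the other 6 libraries Il6 differed by 0.80, Lif by 0.94 and Ptgs2 by 0.56 on the log2 scale. Il6, close to 0 over all 7 libraries, was also positive without knockout 1 (0.32), knockout 2 (0.03) or knockout 4 (0.12). Whether the genotype effect differed between the selected and the 0-of-4 fibroblasts was tested as an interaction, with libraries as blocks: 0 of 12595 genes (0%) passed, 345 had an unadjusted p under 0.05 and DESeq2 called 0. The difference of the log2 fold changes was 0.45 ± 0.46 for Cxcl1 and 0.94 ± 0.58 for Ccl2, and neither passed. With no filter on low counts 34 genes passed, 25 higher and 9 lower. Ccl2 (0.96) and Cxcl1 (0.47) were among the higher. The erythroid markers Hba-a1 (-1.66), Hba-a2 (-1.54), Hbb-bs (-1.18) and Hbb-bt (-0.94) were among the lower.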

How the data were processed

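The authors deposited raw counts: each matrix gives the UMI count of 31253 genes in every barcode of 1 library, with no normalization. The submitters' processing notes list CASAVA 1.8, STARsolo 2.7.10a, Seurat and the build mm10. What each did, the annotation and the rule for keeping barcodes are not given in these notes or the labels. Groups follow the genotype label. Libraries carry the number in their name, because for flox control 2 the title states another replicate number.

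Barcodes were gated in scanpy 1.11.5. Each library held 6167 to 13792 deposited barcodes. Scrublet (expected rate 0.06) marked 0.869% to 2.07% of kept barcodes, which were left in and taken out as an alternative. UMIs were summed per library and class and tested in edgeR 4.0.16 under R 4.3.3 (TMM, filterByExpr, quasi-likelihood test), with Benjamini-Hochberg adjusted p under 0.05 over all tested genes. DESeq2 1.42.0 was an alternative. The SE is the size of the log2 fold change over the square root of F. The 8 genes of the rule were left out of the comparison of selected with 0-of-4 fibroblasts. The script was tested on simulated data. CPM are scaled within each fit, so levels differ slightly between fits.

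The members and gene lists were chosen with earlier results of these data known. Named genes were, per comparison, the 10 largest rises and falls that passed with mean log2 CPM of 4 or more and 1 direction in all 7 libraries, or the 10 of smallest p where fewer passed, up to 4 genes of smallest p per list, and the selecting genes, Cxcl1, Pdgfra and Slc38a2. Fos, Tnf, Il6st, Cd44, Tgfb3, Cxcl12, Col1a1 and Col3a1 were added after their values were seen. So were Ccl2, Ptx3 and Cxcl2 by genotype, and the genes shown by grade. Some genes that the rule names are not reported here. Coordinates are from GENCODE vM21 on GRCm38, in which 99.8% of the identifiers were found.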

Additional observations from a re-analysis of the deposited data

Results flagged for a closer look

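Of 20 groups of levels looked at for a library far from the others, 1 stood out, and chance marks about 1 in 20. Over all Pdgfra-positive barcodes of the knockouts, Lif stood at 167.78 raw CPM in knockout 3, against 32.1, 44.4 and 25.9 in knockouts 1, 2 and 4, a gap of 0.870 of the whole range, past the critical value of Dixon's test for 4 libraries. The flox controls stood at 48.8, 29.1 and 417 raw CPM, and a group of 3 was not tested.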

How the results depend on the processing

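The share difference between genotypes, -0.398 percentage points, changed sign with a stricter gate (1.90) and with all kept barcodes as the denominator (0.0973), and ranged from -6.54 to 5.44 without 1 library each, turning positive without knockout 1 (5.44), knockout 4 (1.72) or flox control 3 (3.13). The p was 0.914 with the stricter gate and 0.943 with the other denominator. Without a knockout the smallest p possible is 0.1, and without a flox control 0.0667, so those values cannot pass. The count of genotype calls in the selected fibroblasts was 2 with DESeq2 and 0 to 1 without 1 library each, the 1 without flox control 3. In all Pdgfra-positive fibroblasts it was 6 with DESeq2 and 0 to 5 without 1 library each, the 5 without knockout 4 (Palb2, Macc1 and 3 unnamed genes, all higher). The interaction gave 34 calls with no filter on low counts, 25 higher and 9 lower. The comparison of selected with 0-of-4 fibroblasts gave 4020 calls at 2000 UMIs per barcode, 2065 higher and 1955 lower of 9297 genes tested, and 4563 against deeper barcodes. Rgs5, a pericyte gene, differed by -0.89 and, against deeper barcodes, by 0.0671. Cthrc1 differed by 0.70 and by 0.06 on the same terms. The causes were not tested.

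The replicate numbers were tried as a replicate block. Deviations of same-numbered libraries from their group means correlated at 0.0984, -0.0086 and 0.256. Pairs of unlike number ran from -0.2855 to 0.1675, so the pair numbered 3 had the highest value. With so few pairs, these values cannot show whether same-numbered libraries share more than a number. With the block over 3 pairs the share difference was 1.72 points (exact permutation p = 1, smallest possible 0.25), the selected fibroblasts gave 0 calls and all Pdgfra-positive fibroblasts 7. Depth limits low genes: the 0-of-4 fibroblasts of a library held as few as 1383900 UMIs.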
